A study of Mus musculus with 5 samples.

Results

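AP-1 and immediate early genes were followed in 5 RNA sequencing libraries of mouse thyroid tumor cell lines driven by BrafV600E. The 10 genes, chosen by symbol, were Jun, Junb and Jund of the Jun family, Fos, Fosb, Fosl1 and Fosl2 of the Fos family, Atf3, Egr1 and Ier3. All 10 were among the 17923 genes listed in at least 1 library, and all 10 passed the filter on low counts. The BVE-Ctnnb1wt cells carried BrafV600E with Ctnnb1, the gene of β-catenin, intact (2 libraries), and the BVE-Ctnnb1null cells carried BrafV600E with Ctnnb1 deleted (3 libraries). Both BVE-Ctnnb1wt libraries came from 1 line, BVE, at passage 20, replicate 1 labelled as grown without thyroid-stimulating hormone (TSH) and replicate 2 with TSH. The BVE-Ctnnb1null libraries were labelled BVECTN_4 at passage 8 without TSH (replicate 1), BVECTN_4A at passage 11 (replicate 2) and BVECTN_5 at passage 7 (replicate 3), with TSH not stated for the last 2. The protocol text instead puts 4 mU/mL TSH in the growth medium and gives about 25 passages for the BVE-Ctnnb1wt and 20 for the BVE-Ctnnb1null lines. The effect of the deletion cannot be told apart from that of the line or its passage number, and p-values measure only the spread between these libraries. The age of the donor mice, the driver of the deletion and the part of Ctnnb1 deleted are not given in the sources used here.

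The authors deposited, for each RefSeq transcript, an estimated read count and a level in FPKM, a read abundance scaled to transcript length and sequencing depth. Total estimated counts were 30432737 and 30713079 in BVE-Ctnnb1wt replicates 1 and 2. They were 29929677, 29360002 and 29415980 in BVE-Ctnnb1null replicates 1 to 3, so that a gene without reads may still have had up to 3 counts, or 0.10 CPM (counts scaled to sequencing depth), by counting error alone. Below, levels are in FPKM, and differences between libraries are in CPM scaled by TMM, a normalization that aligns the bulk of genes between libraries. Each of the 10 genes had 1 listed transcript, so splice forms such as full-length FosB and ΔFosB were not separated.

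Ctnnb1 RNA itself went against the labels. Its level was 59.3 and 73.8 FPKM in the BVE-Ctnnb1wt libraries and 124.6, 196.3 and 117.8 FPKM in the libraries labelled BVE-Ctnnb1null. All 3 of the latter lay above both of the former in FPKM, but in TMM-scaled CPM null replicate 3 (343.8) lay below wt replicate 2 (356.4) and the groups overlapped. The difference in CPM was a log2 fold change of 0.55 ± 0.44 (SE), which did not pass edgeR's quasi-likelihood test (adjusted p = 0.517). A level summed over the whole gene checks nothing if the counted exons lie outside the deleted part, and every direction given below rests on the labels alone.

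AP-1 is a family of dimeric basic leucine zipper transcription factors. Jun proteins pair with each other or with Fos proteins, while Fos proteins need a Jun partner, and the dimers bind the TPA response element (TRE). Dimers with ATF proteins prefer the cyclic AMP response element (CRE). Most of the genes are immediate early genes, transcribed within minutes of a growth factor or stress signal without new protein synthesis, through factors such as serum response factor, ELK, CREB and Jun itself. BRAF V600E keeps the MEK and ERK kinases active, and ERK signaling induces Fos, Egr1, Ier3 and Fosl1 and stabilizes the Fos and Fra-1 proteins. In thyroid cells TSH acts through cyclic AMP.

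The sequences immediately upstream of the start site differ between the genes, and those with a match to a searched motif are shown. The motifs and printed promoters were chosen after a look at the values. A link between a motif and the expression patterns below was not tested. RefSeq promoter sequence (GRCm38.p6) matched 8 of the 10 genes, all but Fosl1 and Egr1. Within 250 bases upstream, both strands were searched for the TRE (TGACTCA), the CRE (TGACGTCA), its core TGACG, the variant TGACATCA known from the Jun promoter, and TATAAA. The 150 bases next to the start site are printed 5′ to 3′ on the strand of the gene, with matches in capitals, for Fos (chr12:85473740-85473889, plus strand), Fosb (chr7:19310046-19310195, minus strand), Jun (chr4:95052223-95052372, minus strand), Junb (chr8:84978749-84978898, minus strand) and Atf3 (chr1:191183334-191183483, minus strand).
Fos: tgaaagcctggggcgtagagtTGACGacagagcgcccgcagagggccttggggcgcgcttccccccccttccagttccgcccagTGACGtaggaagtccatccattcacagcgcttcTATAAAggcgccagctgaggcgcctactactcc
Fosb: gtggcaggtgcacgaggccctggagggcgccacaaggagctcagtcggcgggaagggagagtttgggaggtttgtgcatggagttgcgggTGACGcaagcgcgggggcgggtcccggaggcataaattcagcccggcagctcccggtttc
Jun: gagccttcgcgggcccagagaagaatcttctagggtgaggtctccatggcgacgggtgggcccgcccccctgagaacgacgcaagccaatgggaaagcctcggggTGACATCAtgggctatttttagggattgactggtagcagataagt
Junb: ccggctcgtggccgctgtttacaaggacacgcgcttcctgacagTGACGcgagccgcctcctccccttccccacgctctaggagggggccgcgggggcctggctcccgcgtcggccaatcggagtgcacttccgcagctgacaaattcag
Atf3: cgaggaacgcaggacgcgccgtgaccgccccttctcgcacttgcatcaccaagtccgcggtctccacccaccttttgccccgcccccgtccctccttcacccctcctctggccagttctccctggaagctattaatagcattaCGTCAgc

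Positions are those of the leftmost base of a match, counted back from the start site. The core TGACG was found in 4 of the 8 genes, in Fos at -129 and -66, in Fosb at -60, in Junb at -106 and in Atf3 at -7, there on the opposite strand. Of all 32851 promoters in the table, 17.8% held it. The variant TGACATCA was found in Jun at -45 and in 2.93% of all promoters. TATAAA was found in Fos at -33 and in 12.4% of all promoters. Neither the full TRE (4.46% of all promoters) nor the full CRE (1.55%), which contains the core, matched in any of the 8 genes. Fosl2, Jund and Ier3 had no match to any of these letters. These are matches of letters, and binding was not measured.

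By level, averaged over the 5 libraries, Ier3 (186.2 FPKM), Junb (164.7 FPKM) and Jund (150.4 FPKM) were the most abundant, followed by Jun (45.4 FPKM), Fosl1 (35.4 FPKM) and Fosl2 (17.3 FPKM). Atf3 (9.11 FPKM), Egr1 (8.21 FPKM), Fosb (1.25 FPKM) and Fos (0.93 FPKM) were the least. The ranges of neighbours in this order overlapped. The highest library was 17.1 times the lowest for Atf3, 16.5 times for Fos and 16.5 times for Egr1, but 2.45 times for Fosl2.

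**Figure D1:**
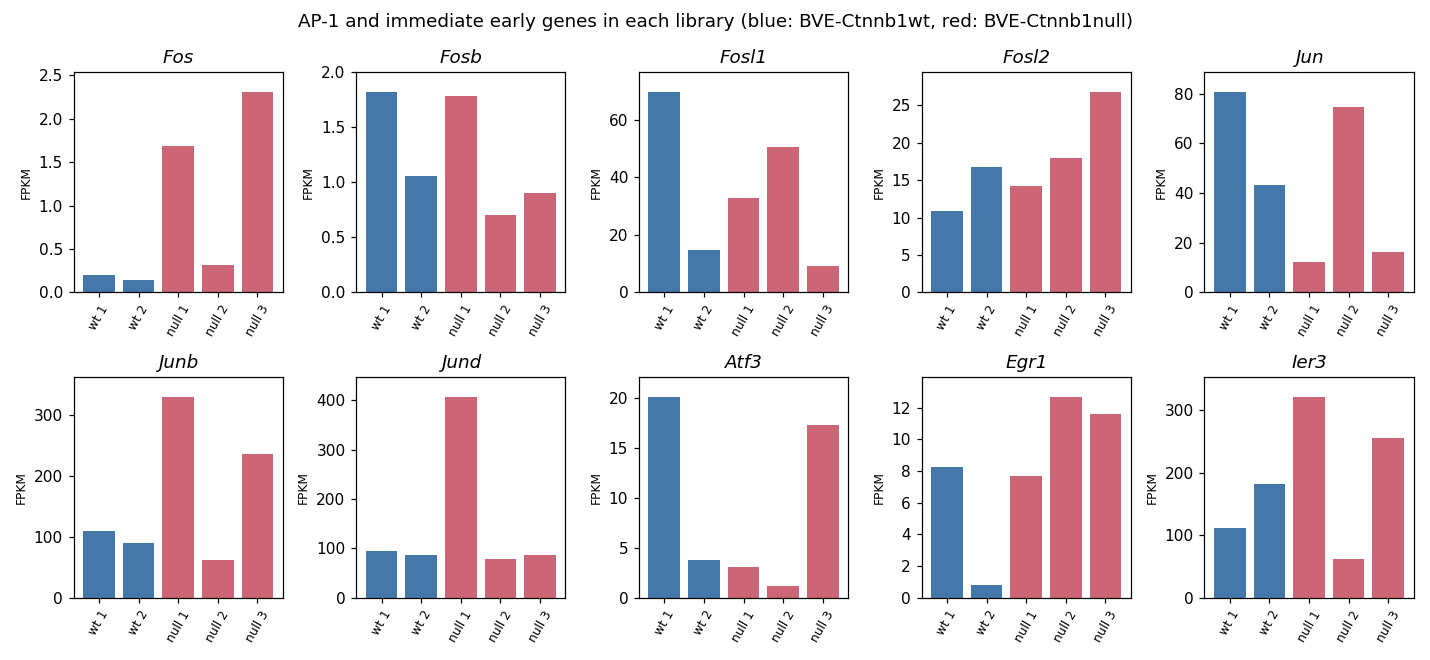
Level in FPKM (vertical axis, from 0, a separate scale in each panel) of the 10 genes in each library, with BVE-Ctnnb1wt libraries in blue and BVE-Ctnnb1null libraries in red. Junb, at 329 and 236 FPKM, and Fos are high and Jun is low in null replicates 1 and 3 but not in null replicate 2, and Egr1 is low in wt replicate 2 (0.77 FPKM).

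None of the 10 genes passed the comparison of the libraries labelled BVE-Ctnnb1null with the BVE-Ctnnb1wt libraries, which asks how loss of β-catenin changed expression. Of the 10 genes, 0 were called by edgeR at an adjusted p under 0.05, where 0% of all 13240 genes tested were called. Under DESeq2 0 were called, against 12.1% of all genes, and at an unadjusted edgeR p under 0.05 the count was 0, against 18.5% of all genes. The adjusted p of edgeR ran from 0.295 for Fos to 0.979 for Ier3. Standard errors of the log2 fold changes were between 0.47 and 1.15. Their median log2 fold change was -0.08, with 4 above 0 and 6 below, and the median over all genes was 0.29. For any single gene, an exact permutation test can give no p below 0.1 with libraries in groups of 2 and 3.

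c-Jun, the strongest transactivator among the Jun proteins and the target of the JNK kinases, had the lowest levels in 2 of the null libraries. Jun was at 80.7 and 43.3 FPKM in the BVE-Ctnnb1wt libraries (62.0 ± 26.4, SD, n = 2) and at 12.3, 74.4 and 16.1 FPKM in null replicates 1, 2 and 3 (34.3 ± 34.8, SD, n = 3). Null replicates 1 and 3 lay below both wt libraries and null replicate 2 lay between them, so the groups overlapped. Scaled by TMM, Jun was 6.85-fold below the wt mean in null replicate 1 and 5.88-fold below it in null replicate 3, but 1.28-fold below in null replicate 2. The log2 fold change between groups was -1.45 ± 0.80 (SE, edgeR adjusted p = 0.363).

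JunB, a weaker activator that can restrain c-Jun, had the opposite order among the null lines. Junb was at 108.6 and 89.7 FPKM in the wt libraries and at 328.7, 60.9 and 235.5 FPKM in the null libraries (208.4 ± 135.9, SD, n = 3). Null replicates 1 and 3 lay above both wt libraries and null replicate 2 below both. The distances from the wt mean were 2.40-fold up, 2.53-fold down and 1.54-fold up in null replicates 1, 2 and 3, and the log2 fold change between groups was 0.53 ± 0.73 (SE, edgeR adjusted p = 0.715). JunD, the family member expressed most evenly in resting cells, was even in FPKM in all libraries but 1. Jund was at 94.4 and 87.2 FPKM in the wt libraries and at 406.7, 78.1 and 85.7 FPKM in the null libraries. Only null replicate 1, 3.23-fold above the wt mean in CPM, stood above the wt libraries, and the other 2 null libraries lay below both, 1.82-fold and 1.64-fold below the wt mean in CPM. Without null replicate 1 the log2 fold change turned from 0.55 to -0.82.

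The make-up of the Jun family therefore differed between lines. Jun made up 28.4% and 19.7% of the summed FPKM of the 3 Jun genes in the wt libraries, 34.9% in null replicate 2, and 1.65% and 4.77% in null replicates 1 and 3. The sum itself was 283.7 and 220.1 FPKM in the wt libraries and 747.7, 213.4 and 337.3 FPKM in the null libraries. The ratio of Junb to Jun level was 1.35 and 2.07 in the wt libraries and 0.818 in null replicate 2, but 26.7 and 14.7 in null replicates 1 and 3. This ratio was computed after its parts were seen and was not tested.

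Among the Fos genes, Fosl1 and Fosl2 supplied nearly all of the RNA. Fosl1, which encodes Fra-1, an AP-1 subunit that tracks sustained ERK signaling and is often raised in invasive carcinoma cells, was at 69.8 and 14.7 FPKM in the wt libraries and at 32.8, 50.5 and 9.22 FPKM in the null libraries. The null libraries overlapped with the wt libraries, except for null replicate 3, which lay 6.81-fold below the wt mean in CPM. Its log2 fold change was -0.97 ± 0.85 (SE, edgeR adjusted p = 0.551). Fosl2, which encodes Fra-2, was the most even of the 10 genes in level, at 10.95 and 16.7 FPKM in the wt and 14.2, 18.01 and 26.8 FPKM in the null libraries. Fosl1 accounted for 84.3% of the summed FPKM of the 4 Fos genes in wt replicate 1 and 45.0% in wt replicate 2. In the null libraries its share was 64.9%, 72.6% and 23.5%, with Fosl2 taking most of the rest. The total over the 4 genes was 82.7 and 32.6 FPKM in the wt libraries and 50.5, 69.5 and 39.2 FPKM in the null libraries.

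Fos, the classic serum-induced immediate early gene, was scarce in all libraries. It was at 0.20 and 0.14 FPKM in the wt libraries (13 and 9 counts) and at 1.69, 0.31 and 2.31 FPKM in the null libraries (107, 19 and 144 counts). Null replicates 1 and 3 stood well above the others. In CPM they were 7.28-fold and 8.89-fold above the wt mean, with a log2 fold change between groups of 2.52 ± 1.15 (SE, edgeR adjusted p = 0.295). Fos was the 1 gene of the 10 whose null libraries all lay above both wt libraries, a pattern shown by 22.6% of all genes, and 0 of the 10 lay wholly below, against 17.3% of all genes. In FPKM the counts were also 1 and 0, against 35.9% and 7.22% of all genes. That separation rested on 19 counts in null replicate 2 (exact Poisson 95% interval 11.4 to 29.7) against 13 in wt replicate 1 (6.92 to 22.2), intervals that overlap and cover counting error only. Fosb, also inducible, was at 1.82 and 1.06 FPKM in the wt and 1.78, 0.70 and 0.90 FPKM in the null libraries, with overlapping groups and a log2 fold change of -0.88 ± 0.73 (SE, edgeR adjusted p = 0.535).

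**Figure D2:**
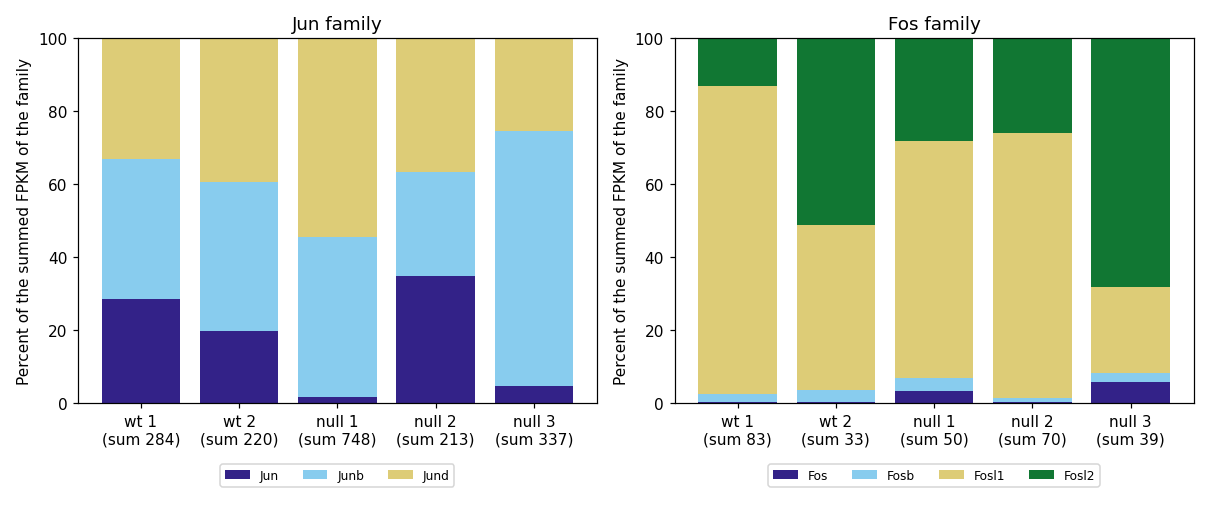
Percent of the summed FPKM of the Jun family (left) and the Fos family (right) taken by each gene in each library, with the sum in FPKM under each bar. Jun falls to 1.65% and 4.77% of its family in null replicates 1 and 3, and Fosl1 holds 84.3% of its family in wt replicate 1 against 23.5% in null replicate 3.

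Outside the Jun and Fos families, Atf3, a stress-induced factor that dimerizes with Jun proteins and often represses its targets, was high in 1 library of each group. It was at 20.1 and 3.81 FPKM in the wt libraries and at 3.11, 1.18 and 17.3 FPKM in the null libraries. In CPM, null replicates 1 and 2 were 5.10-fold and 15.1-fold below the wt mean and null replicate 3 was 1.03-fold below it. Its log2 fold change was -1.28 ± 1.15 (SE, edgeR adjusted p = 0.564). Egr1, a zinc finger factor induced by ERK through ELK and serum response factor, was alike in 4 libraries and low in the fifth. It was at 8.28 FPKM in wt replicate 1 and 0.77 FPKM in wt replicate 2, and at 7.70, 12.7 and 11.6 FPKM in the null libraries. The null libraries differed 1.46-fold at most in CPM, and the log2 fold change of 0.72 ± 0.88 (SE, edgeR adjusted p = 0.678) rested on wt replicate 2. Without that library it was -0.22, and without wt replicate 1 it was 3.02.

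Ier3, an ERK-induced gene that affects survival and ERK dephosphorylation, was at 111.7 and 182.1 FPKM in the wt and 320.4, 61.0 and 255.8 FPKM in the null libraries. Like Junb, its level in FPKM was highest in null replicates 1 and 3 and lowest in null replicate 2, which was 3.83-fold below the wt mean in CPM. Null replicate 3 lay above both wt libraries in FPKM but within their range in CPM, and the log2 fold change was -0.05 ± 0.75 (SE, edgeR adjusted p = 0.979).

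The spread among the 3 null lines was thus wide for most of the genes. The highest null library was at least 4 times the lowest in CPM for 7 of the 10 genes, against 34.5% of all genes, a count set up after the values were seen. Ratios ran from 14.7 for Atf3 and 7.60 for Fos through 6.08 for Junb and 5.36 for Jun to 1.68 for Fosl2 and 1.46 for Egr1. Without null replicate 2 the count was 2, and without null replicate 1 or null replicate 3 it was 5. A range over fewer libraries cannot be larger by construction, and no share of all genes is given for these smaller sets. Null replicates 1 and 3 shared Jun below, and Junb and Fos above, both wt libraries, but differed in Jund, Fosl1 and Atf3.

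**Figure D3:**
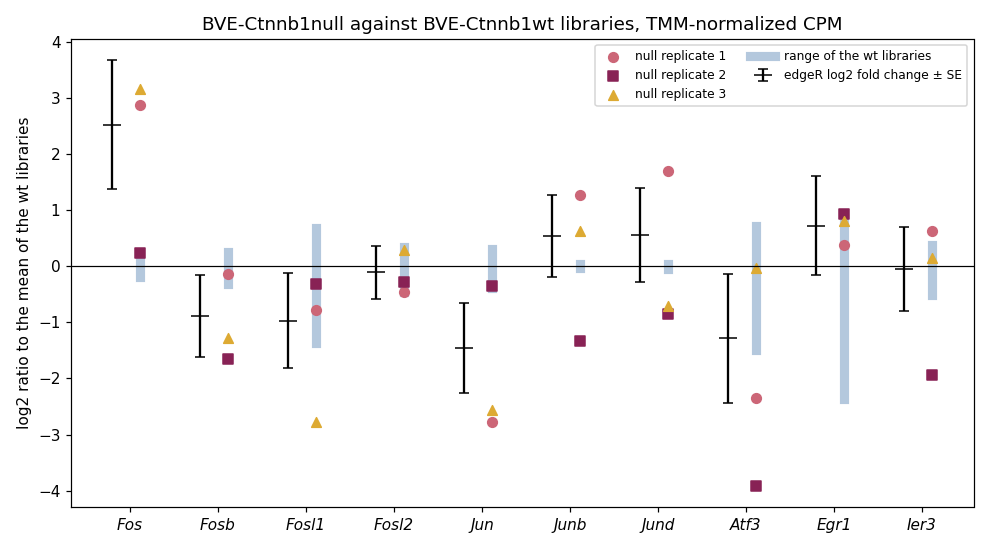
Log2 ratio of each null library to the mean of the wt libraries in TMM-scaled CPM (symbols), the range of the wt libraries (blue bars), and the edgeR log2 fold change ± SE (black). For Junb and Ier3 the null libraries lie on both sides of the wt range, and for Jun, null replicates 1 and 3 lie far below null replicate 2.

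Markers of cell identity also varied between the lines. The summed level of 10 epithelial markers was 1098 and 1775 FPKM in the wt libraries and 13380, 705.8 and 1420 FPKM in null replicates 1, 2 and 3, led by Krt8, Krt7 or Krt18. Epcam was at 5.04 and 4.61 FPKM in the wt libraries, 152.1 FPKM in null replicate 1, 0 in null replicate 2 and 59.6 FPKM in null replicate 3, and Cdh1 and Ovol1 were also at 0 in null replicate 2. No reads were thus counted for these markers in null replicate 2, while its keratins were detected. Ovol1 was also low in other libraries, at 0.12 FPKM in wt replicate 1 and 0.13 FPKM in null replicate 3. None of the 10 epithelial markers separated the groups. The sum of 10 fibroblast markers, led by Col1a1 in the wt libraries, was 322.5 and 291.1 FPKM there and 1.72, 178.4 and 1478 FPKM in the null libraries, with Col3a1, Pdgfrb and Lum at 0 in null replicate 1. Lum was also at 0 in wt replicate 2 and null replicate 2, and at most 0.14 FPKM in any library. Follicular markers were low, summing to 15.3 and 20.6 FPKM in the wt and 35.2, 68.5 and 4.83 FPKM in the null libraries, with Tg at most 0.86 FPKM. Of 8 immune markers, Ptprc, Adgre1 and Cd3e were at 0 in all libraries, while Cd68 was at 6.09 and 14.2 FPKM in the wt and 59.8, 1.00 and 39.9 FPKM in the null libraries. No other immune marker passed 0.37 FPKM, the level of Csf1r in null replicate 3. The sum of 6 endothelial markers was at most 0.75 FPKM. In FPKM, Epcam and Cd68 were thus, like Junb and Ier3, highest in null replicates 1 and 3 and lowest in null replicate 2, and Fos was highest in the same 2 libraries. This order was singled out after the values were seen. It was that of 6 of the 10 epithelial markers, but not of the sum, which was lower in null replicate 3 than in wt replicate 2, nor of Krt8, which was lowest in null replicate 3. Among the immune markers this order was that of Cd68 alone. The part of these cell markers in the values of Junb, Ier3 and Fos was not tested. In bulk RNA, fewer cells of a type and less RNA per cell cannot be told apart.

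Between the BVE-Ctnnb1wt libraries, the comparison of cells labelled without and with TSH, Egr1, Atf3 and Fosl1 differed most. Egr1 was 9.36-fold, Atf3 4.61-fold and Fosl1 4.15-fold higher in CPM in replicate 1, the library without TSH. Egr1 had 786 counts in replicate 1 and 74 in replicate 2 (exact Poisson 95% interval 58.1 to 92.9). Jun was 1.63-fold, Fosb 1.49-fold, Fos 1.27-fold and Junb 1.06-fold higher in replicate 1. In the other direction, Ier3 was 1.87-fold, Fosl2 1.75-fold and Jund 1.06-fold higher in replicate 2. Past 2-fold, 3 of the 10 genes were higher in replicate 1, against 9.91% of all genes, and 0 in replicate 2, against 8.65%. With 1 library on each side the difference has no replicate check and no test. Tshr, the TSH receptor, was at 0.10 and 0.02 FPKM in these libraries. These levels rest on 5 and 3 counts, close to the counting error of 3 counts, and Tshr was not among the genes tested.

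**Figure D4:**
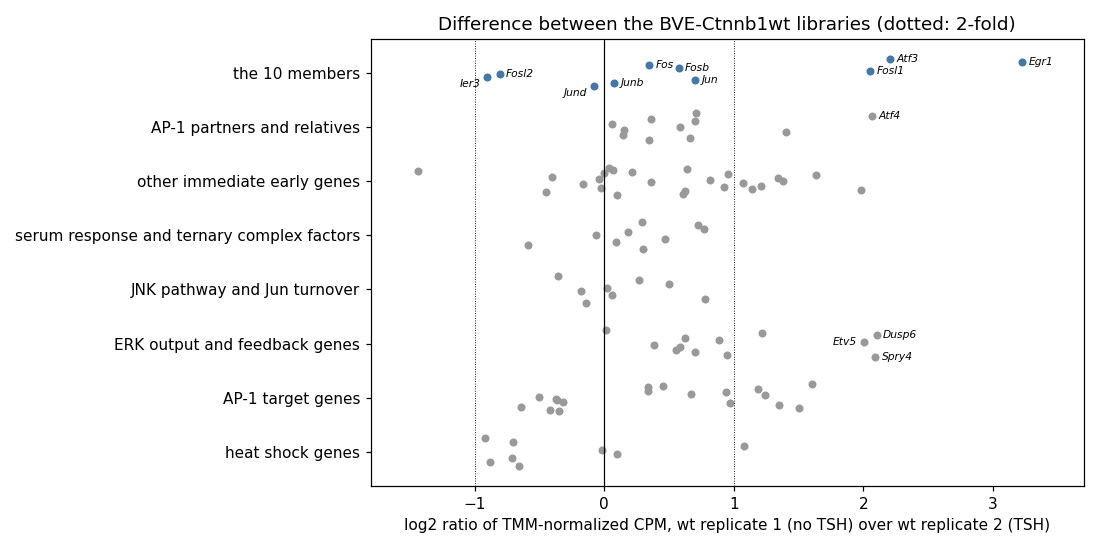
Log2 ratio of TMM-scaled CPM in wt replicate 1 (no TSH) to wt replicate 2 (TSH) for the 10 genes (blue) and the tested genes of 7 related lists (grey), with dotted lines at 2-fold. Arc and Egr3, at 0 in wt replicate 2, are not drawn. Egr1 (9.36-fold), Atf3 and Fosl1 lie to the right with Atf4, Dusp6, Etv5 and Spry4.

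Related genes were compared in the same pair of libraries, where 0 of 9 serum response and ternary complex factors and 0 of 8 tested JNK pathway genes passed 2-fold. Of 12 ERK output and feedback genes, 4 were more than 2-fold higher in wt replicate 1 and 0 in wt replicate 2. Dusp6, the ERK phosphatase, was at 69.3 and 14.1 FPKM in wt replicates 1 and 2 (4.30-fold in CPM). The feedback inhibitor Spry4 was at 1.32 and 0.27 FPKM (4.27-fold), and the ETS factor Etv5 at 10.3 and 2.24 FPKM (4.01-fold). Dusp5, another ERK phosphatase, differed 2.33-fold. Atf4, the effector of the integrated stress response and a known activator of Atf3, was at 327.8 and 68.1 FPKM (4.20-fold), and at 47.2, 88.4 and 339.1 FPKM in the null libraries. Like Atf3, Atf4 was high in wt replicate 1 and null replicate 3. Unlike Atf4, Atf3 was higher in null replicate 1 (3.11 FPKM) than in null replicate 2 (1.18 FPKM). A link between Atf4 and Atf3 in these libraries was not tested. Among 27 tested immediate early genes outside the 10, 7 with more than 3 counts were past 2-fold higher in wt replicate 1, among them Plk3 (3.96-fold), Gadd45a (3.11-fold), Ier2 (2.53-fold) and Myc (2.32-fold), and 1, Ccn2, was higher in wt replicate 2 (2.71-fold). AP-1 target genes past 2-fold higher in replicate 1 were Areg (3.04-fold), Spp1 (2.83-fold), Ptgs2 (2.55-fold), Mmp13 (2.37-fold) and Hbegf (2.27-fold), 5 of the 18 tested. Over all 7 lists of related genes, 18 of 93 tested genes with more than 3 counts in a wt library were higher in replicate 1 and 1 in replicate 2, set beside 9.22% and 7.94% of all genes. Genes that passed 2-fold on at most 3 counts, such as Arc and Egr3, were left out of these counts. The wt pair genes were named after their values were seen.

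In the comparison of null with wt libraries, the related genes too gave 0 calls by edgeR among 93 tested, against 20 at an unadjusted p under 0.05 (18.5% of all genes) and 14 by DESeq2 (12.1% of all genes). All null libraries lay above both wt libraries for 27 of the 93 and below for 9 in CPM, against 22.6% and 17.3% of all genes. In FPKM the balance moved to 41 above and 3 below, against 35.9% and 7.22% of all genes, so it depends on the scaling, and the counts by list below are in CPM, with those in FPKM beside them where they differ. Among dimer partners and relatives (11 tested, median log2 fold change -0.21), Jdp2, a repressor that pairs with Jun proteins, was at 99.8 and 58.4 FPKM in the wt and 14.6, 24.2 and 40.4 FPKM in the null libraries. All 3 null libraries lay below both wt libraries, and the log2 fold change of -2.16 ± 0.52 (SE) passed DESeq2 (adjusted p = 0.00429) but not edgeR (adjusted p = 0.186). Bach1, Atf7 and Atf2 lay wholly above, at most 1.28 FPKM in the wt libraries and at least 1.47 FPKM in the null libraries. Batf3 (log2 fold change -1.38) lay wholly below in CPM but overlapped in FPKM, leaving 1 gene of this list below.

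Upstream of the Jun and Fos genes, 5 of 9 serum response and ternary complex factors lay wholly above in CPM and 6 in FPKM (median log2 fold change 0.60). For each list here, the shares of all genes were 22.6% above and 17.3% below in CPM. In FPKM they were 35.9% and 7.22%. Mrtfb, an actin-regulated partner of serum response factor, was at 0.22 and 0.43 FPKM in the wt and 2.34, 2.10 and 2.43 FPKM in the null libraries (log2 fold change 2.43 ± 0.60, SE, adjusted p = 0.187 by edgeR and 0.000992 by DESeq2). The CREB family members Atf1 and Creb1 had log2 fold changes of 1.68 and 1.01. Of 8 tested genes of the JNK pathway and Jun turnover, 5 lay above and 2, Cops5 and Mapk14, below in CPM (median 0.66). In FPKM 6 lay above and 0 below, with Mapk14 turning from below to above. Map2k4, a kinase that activates JNK, was at 1.25 and 0.77 FPKM in the wt and 10.3, 12.5 and 10.7 FPKM in the null libraries. It was even among the null lines, and its log2 fold change of 2.90 ± 0.52 (SE) passed DESeq2 (adjusted p = 8.20e-07) but not edgeR (adjusted p = 0.180). Mapk9, which encodes JNK2, was at 2.65 and 2.55 FPKM against 10.2, 5.93 and 15.1 FPKM, with a log2 fold change of 1.42, and Map3k1 had one of 1.52. Among ERK output genes, 2 of 12, Spred1 (1.89) and Spred2 (1.77), lay above and 0 below (median 0.29).

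Of the 27 tested immediate early genes outside the 10, 6 lay above and 4 below in CPM (median 0.57), against 22.6% and 17.3% of all genes. In FPKM 15 lay above and 1, Rhob, below, against 35.9% and 7.22% of all genes, with Mcl1 turning from below to above. Zfp36l1, which destabilizes messenger RNAs of early genes, was at 4.54 and 3.69 FPKM in the wt and 31.8, 16.2 and 23.3 FPKM in the null libraries (log2 fold change 1.97 ± 0.53, SE, adjusted p = 0.191 by edgeR and 0.0123 by DESeq2). Btg2 was at 3.90 and 2.18 FPKM against 17.99, 8.95 and 10.5 FPKM. Arc and Egr3 were at most 0.05 FPKM in the wt libraries. Arc was at 2.88, 0.67 and 1.80 FPKM in the null libraries, with 266, 61 and 164 counts against 1 and 0. Egr3, a relative of Egr1, was highest in null replicate 2 (5.17 FPKM), the line with the least Fos of the 3. Rhob was lower, at 148.3 and 83.9 FPKM against 76.9, 64.7 and 50.7 FPKM (log2 fold change -1.40 ± 0.44, SE, adjusted p = 0.204 by edgeR and 0.0367 by DESeq2), and Gadd45b (-1.35) lay below in CPM but overlapped in FPKM.

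AP-1 target genes, 18 tested, had a median log2 fold change of 0.25. In CPM 3 lay above and 1 below, against 22.6% and 17.3% of all genes. Spp1, which encodes osteopontin, was at 71.2 and 22.1 FPKM in the wt libraries and at 373.2, 5234 and 1125 FPKM in the null libraries (log2 fold change 5.0 ± 1.3, SE, adjusted p = 0.191 by edgeR and 0.00017 by DESeq2). Plau, the urokinase gene, was at 3.44 and 3.75 FPKM against 80.1, 10.6 and 187.1 FPKM, and its order among the null lines was that of Fos. Cd44 was at 20.4 and 14.0 FPKM against 42.9, 84.5 and 59.4 FPKM, a log2 fold change of 1.32. Mmp10, a stromelysin, was lower, at 11.4 and 6.26 FPKM against 0.43, 3.78 and 1.48 FPKM, and like Jun it was highest among the null lines in replicate 2. The edgeR adjusted p was 0.194 for Plau and 0.206 for Mmp10, and both passed DESeq2.

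Over the 5 libraries, the genes of at least 10 FPKM on average whose log2 CPM was most like that of Fos included Ly6c1 (Pearson r = 0.993) and Fam107b (0.992), and the most opposed were Ddx24 (-0.995) and Eef1akmt1 (-0.995). Jun was most like Rcc2 (0.998), Riox2 (0.997) and Mlkl (0.996) and most unlike Lamp1 (-0.995) and Sun1 (-0.994). Fosl1 was most like Ddx17 (0.994), Ndufab1 (0.987) and Plaur (0.987), the urokinase receptor gene, and most unlike Ugdh (-0.978) and Ntan1 (-0.977). With 5 libraries shared by every gene and a search over the whole table, such values arise easily, and they are given as a description of these libraries.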

How the data were processed

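RNA from 2 BVE-Ctnnb1wt and 3 BVE-Ctnnb1null libraries (Illumina TruSeq kit) was compared by the groups in the labels. The authors deposited expected counts per RefSeq transcript and FPKM values scaled to transcript length and library total, listed from 0.01 FPKM upward. The aligner, counting program and genome build are not given in the sources used here. Both were summed per NCBI gene, and summed counts were rounded. Symbols came from the RefSeq table of GRCm38.p6, which matched 17866 of 17923 genes. Counts were tested with edgeR 4.0.16 in R 4.3.3 (TMM, filterByExpr by group, glmQLFit, glmQLFTest) over 13240 genes with Benjamini-Hochberg adjustment at 0.05. The SE was the size of the log2 fold change over the square root of F. Alternatives were DESeq2 1.42.0, no filter, a minimum of 10 counts per library, library totals without TMM, a replicate block, leaving out each library, and limma-trend (limma 3.58.1) on log2-transformed FPKM with 0.1, 0.01 or 1 added (at least 0.5 FPKM in 2 libraries). The edgeR, DESeq2 and limma fits were tested on simulated data, and the outcome is not reported here. Exact tests, levels and figures used Python 3.11.15 with matplotlib 3.10.9, scipy 1.17.1, pandas 2.3.3 and numpy 2.4.6. Total counts per library were between 29360002 and 30713079.

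The genes and lists were chosen with earlier results of these data known. From each of 7 lists, up to 6 genes were named with a log2 fold change of at least 1 in size, at least 1 FPKM on average in the higher group and groups that did not overlap in CPM. The 5 marker lists were described by counts, sums, genes at 0 and the levels of single genes such as Epcam, Cd68, Postn and Pax8. The count of genes with a 4-fold range among null libraries, the Junb to Jun ratio, the choice of motifs and printed promoters, and the genes named between the wt libraries followed a look at the values. Experiments in mice and cytotoxicity assays were not analysed here. A few genes that these rules would name are not reported here.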

Additional observations from a re-analysis of the deposited data

How the results depend on the processing

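None of the 10 genes passed the test in any fit that was run, the lowest adjusted p being 0.141 for Jun and 0.159 for Fos (limma, edgeR and DESeq2 fits together). Fos (log2 fold change 0.96 to 3.07), Fosb (-1.49 to -0.21) and Jun (-2.75 to -0.86) kept their direction in every fit that gave them a value. The number of all genes called went from 0 by edgeR to 1600 by DESeq2, 4 without a filter, 1 with at least 10 counts in every library, and 6, 4 and 8 by limma with 0.1, 0.01 and 1 added. For the related genes DESeq2 called 14, and in FPKM in place of CPM, an alternative added after seeing the data, 41 in place of 27 lay wholly above and 3 in place of 9 below. With at least 10 counts in every library Fos was dropped, leaving 0 genes whose groups did not overlap. Leaving out a library gave 2 to 5 such genes of the 10, where between 50.1% and 60.3% of all genes did not overlap, against 39.8% with all libraries, since fewer libraries overlap less by construction. The median log2 fold change of the 10 genes was 0.38 by limma with 0.1 added, 0.38 with 0.01, 0.51 on library totals, and -0.71 to 0.23 when a library was left out. The median over all genes was 0.29 with TMM, 0.21 with DESeq2, 0.61 on log2 of FPKM plus 0.1 and 0.87 on totals, so that directions of small changes are set by scaling. Fosl2 turned to 0.49, 0.49 and 0.46 by limma with 0.1, 0.01 and 1 added and to 0.50 on totals, and Ier3 to 0.26, 0.26, 0.26 and 0.53. Leaving out a library gave ranges of -0.53 to 0.27 for Fosl2, -0.60 to 0.38 for Ier3, -0.10 to 0.88 for Junb, -1.76 to 0.30 for Fosl1, -2.99 to 0.16 for Atf3, -0.22 to 3.02 for Egr1 and -0.82 to 0.85 for Jund, where a lone wt library is assumed to vary like the null libraries. Apart from scaling and fewer libraries, the cause was not tested.

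Replicate numbers 1 and 2 occur in both groups, but the labels do not say that they pair libraries, and deviations of same-numbered libraries correlated at -0.121 and -0.115. With the replicate number as a block, 0 of the 10 genes and 0 of all genes were called, and the log2 fold change of Junb was -0.04. Counting error limits Fos, at 9 to 19 counts in 3 libraries.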

Other observations

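Heat shock genes, many of them induced by protein damage rather than by growth factors, summed over 8 genes to 1755 and 2354 FPKM in the BVE-Ctnnb1wt libraries. In the BVE-Ctnnb1null libraries the sums were 2554, 2838 and 3733 FPKM. Most of each sum was Hspa8, at 1304 and 1859 FPKM in the wt and 2033, 2389 and 2356 FPKM in the null libraries. Hspa5 was at 1238 FPKM in null replicate 3 and at most 285.2 FPKM elsewhere. The order of the sums thus reflects these genes more than the inducible ones. It also depends on the scaling, since in CPM Hspa8 overlapped between the groups (log2 fold change -0.09) and Hspb1 was at -1.45. Of the 8, 2 lay wholly above and 0 below in CPM, against 22.6% and 17.3% of all genes. In FPKM 5 lay above and 0 below, against 35.9% and 7.22%. None passed edgeR's test, and Hspa1a and Hspa1b passed DESeq2. The inducible Hspa1b was at 0.86 and 0.76 FPKM in the wt and 14.5, 9.84 and 25.8 FPKM in the null libraries (log2 fold change 3.77 ± 0.66, SE, adjusted p = 0.180 by edgeR and 1.12e-06 by DESeq2). Hspa1a was at 0.14 and 0.06 FPKM against 20.7, 0.30 and 6.83 FPKM (DESeq2 adjusted p = 0.00056), low like Fos in null replicate 2. These 2 genes are nearly identical in sequence, so their split of reads is uncertain.

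Braf RNA was at 0.26 and 0.15 FPKM in the wt and 0.45, 0.86 and 3.46 FPKM in the null libraries (log2 fold change 2.33 ± 1.01, SE, edgeR adjusted p = 0.276). Postn, a fibroblast marker, was at 101.6 FPKM in null replicate 3 and at most 0.13 FPKM elsewhere. Pax8, a follicular transcription factor, was at 0.40 and 0.17 FPKM in the wt and 18.2, 12.8 and 2.56 FPKM in the null libraries.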
